A study of Mus musculus with 4 samples.

Results

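The type I interferon response genes described here are 43 of the 22295 genes named on the array, chosen by symbol: the receptor subunits, the proteins that carry the signal, nucleic acid sensors, and genes known to be induced by interferon. They were measured in Tregs, the regulatory subset of CD4 T cells, which holds immune responses in check and depends on the transcription factor Foxp3. Spleen and thymus of wild-type (WT) and of deltaDC animals gave 4 groups, all from male C57BL/6 mice whose age was not given, and each group was 1 one-colour array. The name deltaDC is used in the field for animals that lack dendritic cells, but the labels leave it unexplained and give no allele, promoter or Cre driver. Each RNA came from cells of 3 mice of a genotype pooled before the sort, so both organs of a genotype come from the same mice. Splenic CD4 T cells were enriched by a negative-selection kit and thymic cells by removal of CD8-positive cells, and both were sorted as live CD4+ CD25+ cells, without a Foxp3 stain. Organ and enrichment method therefore cannot be told apart.

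Type I interferons bind a receptor made of Ifnar1 and Ifnar2. The signal passes through the kinases Jak1 and Tyk2 to a complex that holds Stat2 and Irf9, which binds the interferon-stimulated response element in promoters of target genes. The products include RNA and DNA sensors, enzymes and binding proteins that block viral replication, and the ubiquitin-like protein Isg15 with its enzymes. Irf7, itself induced, amplifies interferon production, and Usp18 dampens the receptor. In the thymus, resting expression of these genes is known to be maintained by interferon made without infection, and maturing thymocytes express them.

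Promoter sequences show which of these genes carry the response element next to their start. Promoters (250 bases before to 50 after the start) were present for 33 of the 43 genes in the RefSeq table of build GRCm38.p6. The core of the response element, GAAA followed by any 2 bases and a second GAAA, was searched on both strands, where the other strand reads TTTC, 2 bases and TTTC. It occurred in 15 of the 33 (45.5%), against 1079 of 27025 genes (3.99%). The shorter form, with 1 base between the GAAA repeats, can overlap the first and occurred in 8 (24.2%), against 3.7% of genes. At least one of them was present in 18 (54.5%), against 7.27%. The stretches below run from position -160 to -31 relative to the start, with matches to either motif in capitals. The first 4 genes and Oasl2 were among those highest in thymus relative to spleen, Isg15 holds the most matches of those shown, and Bst2 differed in the opposite way between genotypes in the 2 organs.
Ifit1, chr19:34640729-34640858, plus strand: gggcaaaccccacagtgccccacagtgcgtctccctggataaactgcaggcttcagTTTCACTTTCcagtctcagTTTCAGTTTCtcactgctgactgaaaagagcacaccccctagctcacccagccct
Ifit3, chr19:34583369-34583498, plus strand: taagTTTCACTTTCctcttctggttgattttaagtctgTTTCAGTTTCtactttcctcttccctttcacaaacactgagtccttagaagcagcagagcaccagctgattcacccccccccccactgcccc
Rsad2, chr12:26456483-26456612, minus strand: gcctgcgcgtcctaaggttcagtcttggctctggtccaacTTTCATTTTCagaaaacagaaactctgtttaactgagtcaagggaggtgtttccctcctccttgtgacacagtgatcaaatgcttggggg
Ifi44, chr3:151749941-151750070, minus strand: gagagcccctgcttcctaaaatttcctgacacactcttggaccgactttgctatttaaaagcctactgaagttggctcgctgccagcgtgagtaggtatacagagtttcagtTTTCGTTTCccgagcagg
Isg15, chr4:156200849-156200978, minus strand: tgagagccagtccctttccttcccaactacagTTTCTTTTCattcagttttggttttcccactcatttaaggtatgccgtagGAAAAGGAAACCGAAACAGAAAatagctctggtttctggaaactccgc
Bst2, chr8:71537503-71537632, minus strand: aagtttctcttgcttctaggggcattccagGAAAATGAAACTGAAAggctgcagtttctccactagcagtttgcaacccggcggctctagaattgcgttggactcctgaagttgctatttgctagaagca
Oasl2, chr5:114896774-114896903, plus strand: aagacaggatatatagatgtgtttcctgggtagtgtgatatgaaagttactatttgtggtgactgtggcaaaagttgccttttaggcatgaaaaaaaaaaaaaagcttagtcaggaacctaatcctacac
Ifit1 and Ifit3 each held 2 copies of the longer motif in this window, Rsad2 held 1, and Bst2 held 2 that overlap. Isg15 held 3 of the longer and 1 of the shorter, and Ifi44 held the shorter alone. Oasl2 had no match anywhere in its promoter of the table, which says only that these letters are not in that window. A match is a description of the letters and not evidence of binding in these cells. Mx1, Mx2, Oas1b, Oas2, Usp18, Dhx58, Rtp4, Parp9, Parp14 and Zbp1 had no entry in the table.

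Nearly the whole programme was detected in all groups. Between 48.7% and 50.7% of spots on an array were well above background, the scanner software's flag for a signal above the local noise. By this flag, 42 of the 43 genes were measured on all 4 arrays, and Oas1g was not well above background on any. Levels are given as scaled signals, fluorescence after each array was set to a common 75th percentile. Differences are given in log2 units, where 1 unit is 2-fold. There were no replicate arrays, so comparisons of 2 arrays carry no p-value. The error given is the spread expected from probes spotted several times on the same array, with a median of 0.08 log2 units over the 42 genes in each comparison. It holds no variation between animals, sorts or labellings, and 1 array a group limits the precision of every value.

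Markers of cell types were read on the same arrays. All 6 Treg markers were well above background on every array, with Foxp3 at 11653 in WT spleen, 10893 in deltaDC spleen, 8853 in WT thymus and 10549 in deltaDC thymus. All 7 general T cell markers were present as well. The 7 markers of immature thymocytes, such as Rag1 and Dntt, summed to 758 and 602 in WT and deltaDC spleen and to 54342 and 50033 in WT and deltaDC thymus, with all 7 well above background on both thymus arrays. Markers of natural killer cells summed to 4146 in WT spleen, 32396 in deltaDC spleen, 13519 in WT thymus and 16125 in deltaDC thymus. Erythroid markers summed to 2096, 5815, 4116 and 17127 in the same order. Among markers of plasmacytoid dendritic cells, which produce much interferon, between 6 and 8 of 9 were well above background on an array. Siglech was bright in all groups (43105 to 69980), and whether its probe reads that gene alone was not tested. Between deltaDC and WT thymus, Cox6a2 was higher by 5.95, Tcf4 was lower, at -1.29, and the other 5 measured on both arrays stayed under 2-fold. Between the spleen arrays, Runx2 (1.84) and Ccr9 (1.11) were higher in deltaDC mice. Cox6a2 was at least 3.04-fold higher there, against the lowest WT signal well above background. Siglech (-0.63), Ly6d (-0.60), Tcf4 (0.38) and Pacsin1 (-0.00025) stayed under 2-fold in spleen. Of 9 conventional dendritic cell markers, 2 were well above background in WT spleen, 7 in WT thymus and 6 on each deltaDC array, while Xcr1 and Clec9a were so on none. Cd86 (-1.02) and Ccl17 (-1.93) were lower in deltaDC than in WT thymus, and Cd209a was well above background in WT thymus alone. Flt3 (0.73), Sirpa (0.09), Zbtb46 (-0.18) and Itgax (-0.29) stayed under 2-fold in that comparison. In spleen, Cd86 was lower in deltaDC mice (-1.56) and Sirpa higher (0.70). Itgax and Zbtb46 were at least 5.43-fold and 5.25-fold higher in deltaDC spleen, against the lowest WT signal well above background. B cell markers summed to 2103 and 1992 in WT and deltaDC spleen and to 3535 and 7220 in WT and deltaDC thymus. In pooled sorted cells, a change in the share of a cell type and a change of RNA per cell cannot be told apart.

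**Figure D1:**
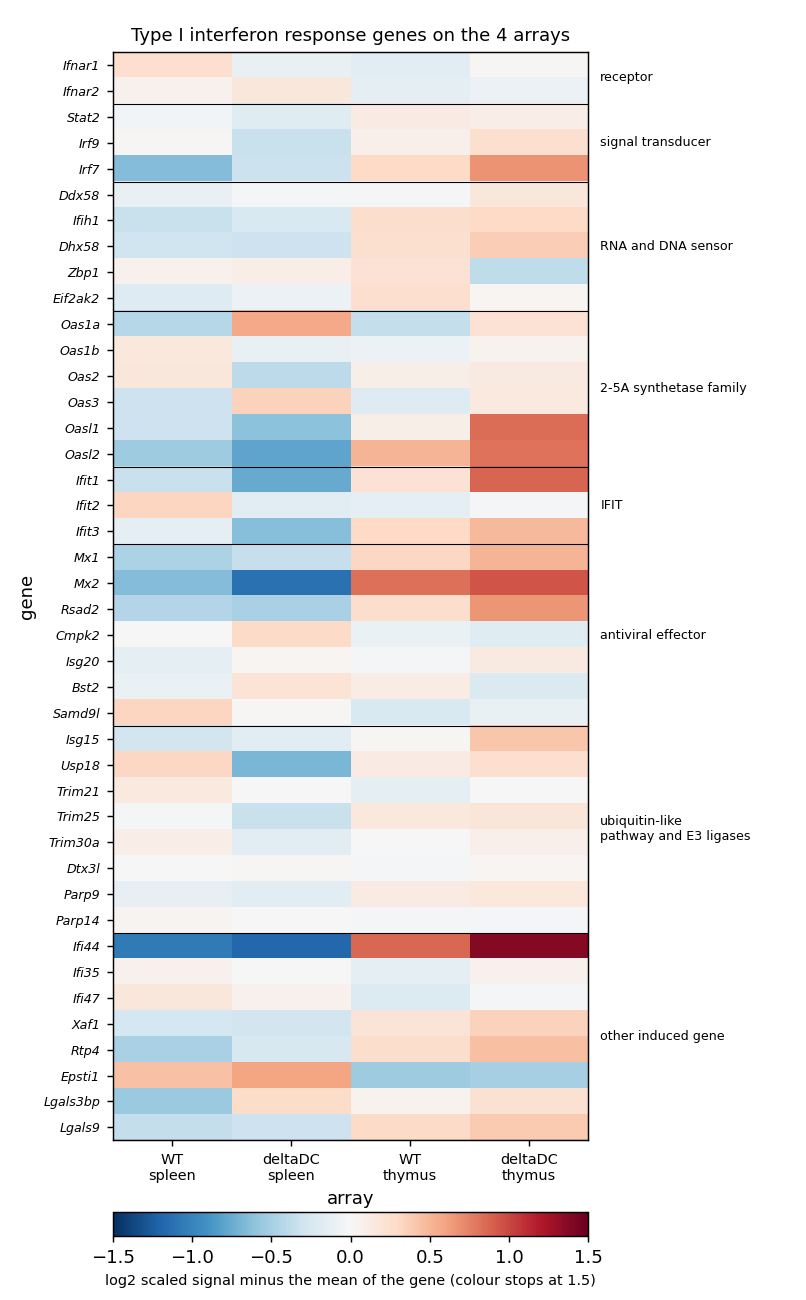
Each row is one of the 42 measured genes, grouped by role, and each column an array. Colour gives the log2 scaled signal minus the mean of the gene over the 4 arrays. Ifi44 and Mx2 show the widest span, with low spleen and high thymus arrays, while Dtx3l and Parp14 are nearly flat.

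The comparison of thymus with spleen asks how far the programme differs between Tregs of the 2 organs. The antiviral genes Ifi44, Mx2 and Oasl2 were at least 2-fold higher in thymus in both genotypes, 3 of the 42 where 2.81% of all genes were. Oasl1, Ifit1, Ifit3 and Rsad2 were so in deltaDC mice. In WT mice, 3 of the 42 genes were at least 2-fold higher in thymus and 0 lower, where 9.56% of all measured genes differed 2-fold in either direction (6.53% higher and 3.03% lower). In deltaDC mice, 7 were higher and 1, Epsti1, was lower, where 11.5% of genes differed (5.37% higher and 6.16% lower). The median difference was 0.15 in WT and 0.27 in deltaDC, against -0.08 and -0.02 over all genes. In WT 27 of the 42 lay above 0 (41.4% of all genes) and in deltaDC 31 (48.1% of all genes). Both thymus arrays lay above both spleen arrays for 21 of the 42 genes (50%), against 24.1% of all genes. The reverse held for 6 (Ifnar2, Cmpk2, Samd9l, Parp14, Ifi47 and Epsti1), against 33.1%. Under the other scalings, background correction and probe rule these counts ran from 20 to 24 and from 3 to 9. The immature thymocyte markers differed between the same arrays by far more, and the 6 B cell markers measured on both deltaDC arrays were higher in thymus by a median of 4.41. Of the plasmacytoid dendritic cell markers measured in WT, 3 of 5 were at least 2-fold higher in thymus (median 1.84). In deltaDC mice 2 of 7 were higher and 1 was lower (median 0.34). Their part in these differences was not tested.

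In the additive fit of genotype and organ over the 4 arrays (limma, 1 residual degree of freedom, Benjamini-Hochberg adjustment), none of the 42 genes passed an adjusted p of 0.05 for organ, where 64 of 13490 genes did (0.474%). At an unadjusted p of 0.05, 12 of the 42 passed (28.6%), against 20.2% of genes. They were Irf7, Ifih1, Dhx58, Oasl2, Mx1, Mx2, Rsad2, Ifi44, Xaf1, Rtp4 and Lgals9, higher in thymus, and Epsti1, lower. The lowest adjusted p belonged to Ifi44, at 0.104 (limma, unadjusted p = 0.00293), with a fitted organ difference of 2.24 ± 0.23 (SE). Over the alternative settings its adjusted p ran from 0.072 to 0.502. The organ differences below are therefore sizes on these arrays, not called changes.

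The 2 organ comparisons share no array. Across the 42 genes the organ difference in deltaDC mice followed that in WT mice with r = 0.80 (Pearson) and rho = 0.68 (Spearman), against r = 0.58 across all genes. Genes are not independent replicates, and scaling and labelling were common to both. Of the 42 genes, 22 were above 0 and 6 below 0 in both genotypes, and the matching shares of all genes were not counted.

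**Figure D2:**
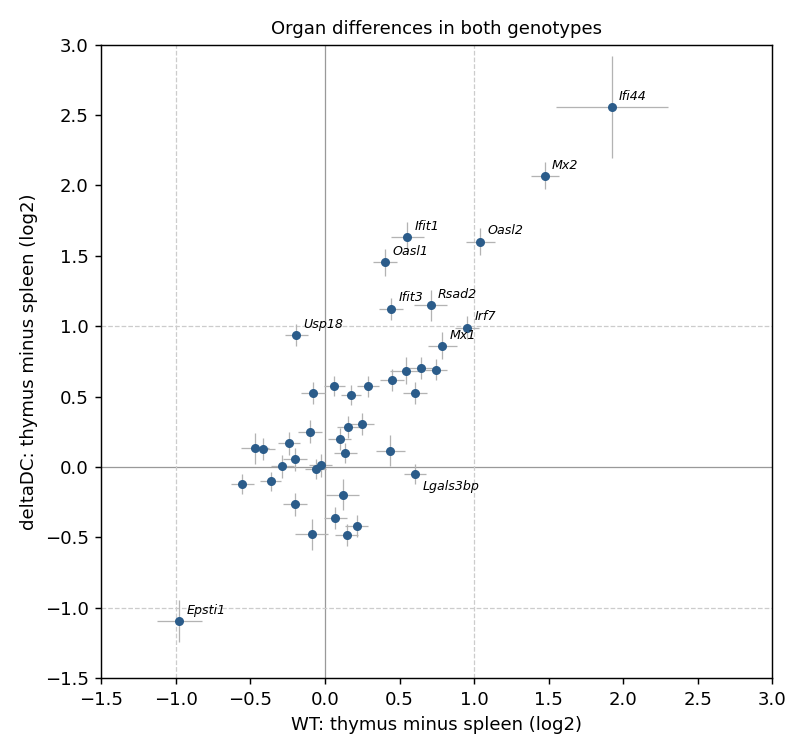
Each point is one gene, with its thymus minus spleen log2 difference in WT (x axis) and in deltaDC (y axis), bars giving the error between repeated spots and dashed lines a 2-fold difference. Ifi44, Mx2 and Oasl2 lie past 2-fold on both axes, and Usp18 and Lgals3bp lie off the diagonal.

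The receptor subunits stayed within 2-fold between organs. Ifnar1, the subunit that carries Tyk2, had scaled signals of 5652 in WT spleen, 4388 in deltaDC spleen, 4235 in WT thymus and 4802 in deltaDC thymus. WT spleen was highest, and the organ difference was -0.42 ± 0.08 in WT and 0.13 ± 0.08 in deltaDC mice. Its 2 dimmer probes gave -0.62 and -0.22 in WT and -0.18 and -0.08 in deltaDC. Ifnar2, the high-affinity subunit, had 2480, 2684, 2159 and 2232 in the same order of groups. Both thymus arrays were lower, by -0.20 in WT and -0.27 in deltaDC.

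All 3 signal transducers were higher on both thymus arrays. Irf7, the inducible master regulator of interferon genes, had scaled signals of 1302 in WT spleen, 1636 in deltaDC spleen, 2521 in WT thymus and 3249 in deltaDC thymus. The organs did not overlap, with differences of 0.95 ± 0.08 in WT and 0.99 ± 0.08 in deltaDC, just short of 2-fold. Irf9, the DNA-binding part of the complex with Stat2, had 13197, 10373, 13785 and 15467. Its organ difference was 0.06 in WT and 0.58 in deltaDC. Stat2 had 4337, 3923, 4837 and 4774, with differences of 0.16 and 0.28. Irf7 thus spanned more than its partners in the pathway.

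Of the 5 sensors, 4 were higher on both thymus arrays. Ifih1 (MDA5), a sensor of long double-stranded RNA, differed between organs by 0.60 in WT and 0.52 in deltaDC. Dhx58 (LGP2), which modulates MDA5 and RIG-I, differed by 0.55 and 0.69. Ddx58 (RIG-I) itself differed by 0.10 and 0.20, and Eif2ak2, the RNA-activated kinase PKR, by 0.44 and 0.12. Zbp1, a sensor of Z-form nucleic acid, differed by 0.14 in WT and -0.48 in deltaDC on its brighter probe, while its other probe gave 0.02 and -0.09. None of the sensors reached 2-fold in any comparison.

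The oligoadenylate synthetases make a messenger that activates RNase L, and the related Oasl proteins act by other routes. The catalytic and the Oasl genes behaved differently between organs. Oasl2 had scaled signals of 876 in WT spleen, 734 in deltaDC spleen, 1805 in WT thymus and 2226 in deltaDC thymus. Both thymus arrays were above both spleen arrays, by 1.04 ± 0.10 in WT and 1.60 ± 0.10 in deltaDC. Oasl1, an inhibitor of Irf7 translation, had 1017, 823, 1344 and 2256. It was highest in deltaDC thymus, and the organ difference was 0.40 ± 0.08 in WT and 1.45 ± 0.10 in deltaDC.

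Oas1a had 4616 in WT spleen, 9240 in deltaDC spleen, 4846 in WT thymus and 7200 in deltaDC thymus. Here the groups parted by genotype and not by organ, with organ differences of 0.07 in WT and -0.36 in deltaDC. Oas3 showed the same order of arrays within each organ, with organ differences of 0.12 and -0.20. Oas2 differed between organs by -0.08 and 0.53, and Oas1b, truncated in common laboratory strains, by -0.24 and 0.17. Near-identical genes of this cluster could share label on their probes, which these files do not resolve.

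The Ifit genes encode proteins that bind foreign RNA ends and lie together on one chromosome. Ifit1 had scaled signals of 397 in WT spleen, 295 in deltaDC spleen, 582 in WT thymus and 915 in deltaDC thymus. The organ difference was 0.55 ± 0.11 in WT and 1.63 ± 0.11 in deltaDC. Ifit3 had 1456, 1038, 1979 and 2263, with differences of 0.44 ± 0.08 and 1.12 ± 0.08. For both, the thymus arrays lay above the spleen arrays. Ifit2 did not share this order: its signals were 1010, 721, 729 and 790, with differences of -0.47 in WT and 0.13 in deltaDC. Ifit2 had no motif match in its promoter, whereas Ifit1 and Ifit3 did. Irf7, Oasl1 and Oasl2 had no match either and were higher on both thymus arrays. Oas1a, Trim21 and Bst2 held a match and were not. A link between motif and organ difference was not tested.

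Among the 7 antiviral effectors, Mx1, Mx2 and Rsad2 were higher on both thymus arrays. Mx2, a dynamin-like GTPase, had scaled signals of 496 in WT spleen, 359 in deltaDC spleen, 1378 in WT thymus and 1505 in deltaDC thymus. The organs did not overlap, and the difference was 1.48 ± 0.10 in WT and 2.07 ± 0.10 in deltaDC. Mx1, its paralog, carried in a truncated form by this strain, had 816, 889, 1408 and 1615, with differences of 0.79 and 0.86. Rsad2 (viperin), which makes a chain-terminating nucleotide, had 262, 253, 428 and 562, with differences of 0.71 ± 0.11 and 1.15 ± 0.11.

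Cmpk2, the nucleotide kinase whose start lies 12.8 kb from that of Rsad2 on chromosome 12, did not go with it. Its organ difference was -0.09 in WT and -0.48 in deltaDC. Samd9l, a restriction factor, was lower on both thymus arrays, by -0.55 in WT and -0.12 in deltaDC. Isg20, an exonuclease, differed by 0.14 and 0.10. Bst2 (tetherin), which holds budding virions at the cell surface, differed by 0.21 in WT and -0.42 in deltaDC.

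Of the 8 genes of the ubiquitin-like pathway and E3 ligases, Isg15, Trim25 and Parp9 were higher on both thymus arrays by their brightest probes. Isg15, the ubiquitin-like modifier, had scaled signals of 8829 in WT spleen, 9617 in deltaDC spleen, 10790 in WT thymus and 14305 in deltaDC thymus. Its organ difference was 0.29 in WT and 0.57 in deltaDC. Trim25, a ligase for RIG-I, differed by 0.18 and 0.51, and Parp9 by 0.25 and 0.31. The second Trim25 probe, also bright, gave -0.09 in WT and 0.04 in deltaDC, and the dim Parp9 probe gave -0.05 and 1.35. Usp18, the protease that removes Isg15, had 4676 in WT spleen, 2340 in deltaDC spleen, 4093 in WT thymus and 4483 in deltaDC thymus. Only the deltaDC spleen array stood low, so the organ difference was -0.19 ± 0.08 in WT and 0.94 ± 0.08 in deltaDC. Trim21, Trim30a, Dtx3l and Parp14 stayed within 0.29 of 0 in both organ comparisons.

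Ifi44 had the largest organ difference of the 42 genes. Its scaled signals were 44.2 in WT spleen, 40.9 in deltaDC spleen, 168 in WT thymus and 241 in deltaDC thymus. The difference was 1.93 ± 0.37 in WT and 2.56 ± 0.36 in deltaDC, with wide errors because both spleen signals were dim. Under a background correction that adds an offset (normexp), it was 1.01 and 1.58. Epsti1 went the other way, with 252, 279, 128 and 131, and differences of -0.98 ± 0.15 and -1.09 ± 0.15.

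Rtp4, a chaperone-like protein of receptor transport, had 7934 in WT spleen, 9402 in deltaDC spleen, 13284 in WT thymus and 15173 in deltaDC thymus. Its organ difference was 0.74 in WT and 0.69 in deltaDC, nearly equal. Lgals9, which encodes galectin-9, differed by 0.64 and 0.70, and Xaf1, a pro-apoptotic factor, by 0.45 and 0.62. Ifi47, an interferon-inducible GTPase also driven by interferon-gamma, was lower in thymus, by -0.36 and -0.10. Ifi35 differed by -0.20 in WT and 0.05 in deltaDC.

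**Figure D3:**
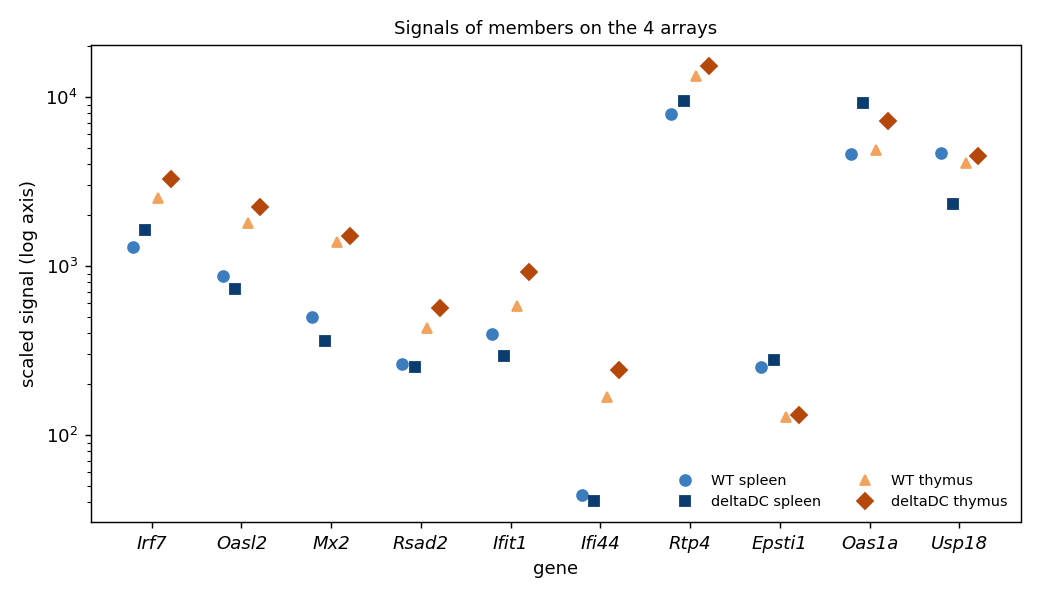
Scaled signals (log axis) of the named genes on the 4 arrays, 1 symbol per array. For Irf7, Oasl2, Mx2, Rsad2, Ifit1, Ifi44 and Rtp4 both thymus symbols lie above both spleen symbols, Epsti1 is reversed, Oas1a parts by genotype, and Usp18 is low only in deltaDC spleen.

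Genes with and without a promoter motif were set side by side. The 17 measured genes with at least one of the motifs had a median organ difference of 0.29 in WT and 0.28 in deltaDC, with 14 above 0 in each. The 15 with neither had medians of -0.03 and 0.10, with 7 and 9 above 0. The 10 genes with no promoter in the table had medians of 0.20 and 0.61. Ranges overlapped widely: genes with a motif ran from -0.29 to 1.93 in WT, and those without from -0.98 to 1.04. The difference between these sets was not tested.

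The comparison of genotypes asks whether the programme differs between Tregs of deltaDC and WT mice. In spleen, 1 of the 42 genes, Oas1a, was at least 2-fold higher in deltaDC mice and 0 were lower, where 8.41% of all genes differed (6.41% higher and 2% lower). The median was -0.03, against -0.0047 over all genes, with 18 genes above 0 and 24 below, where 49.3% of all genes were above 0. In thymus 0 of the 42 genes differed 2-fold, where 1.6% of all genes did (0.928% higher and 0.667% lower). The median was 0.14, against 0.05 over all genes. In thymus 37 of the 42 genes lay above 0, against 60.2% of all genes, but with the deposited matrix in place of the scanner values it was 27, so this count moves with the scaling. No gene of the 42 passed an adjusted p of 0.05 for genotype in the limma fit, nor did any of the 13490 genes. At an unadjusted p of 0.05 it was 1 of 42 (2.38%), Oas1a, against 4.37% of genes.

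Oas1a was higher in deltaDC mice by 1.001 ± 0.08 in spleen and 0.57 ± 0.08 in thymus. Its second probe gave 0.96 and 0.44. The spleen value lies at the 2-fold limit and was below it by quantile normalization, in the deposited matrix and as the median of its probes. The fitted genotype difference was 0.79 ± 0.19 (SE), with an adjusted p of 0.806 (limma, unadjusted p = 0.027). Oas3 was higher by 0.66 ± 0.11 in spleen and 0.34 ± 0.11 in thymus. Lgals3bp, a secreted glycoprotein, had scaled signals of 8105 in WT spleen, 14441 in deltaDC spleen, 12328 in WT thymus and 13938 in deltaDC thymus. WT spleen stood low, with genotype differences of 0.83 ± 0.07 in spleen and 0.18 ± 0.07 in thymus. Irf7 was higher in deltaDC mice in both organs, by 0.33 and 0.37.

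At the low end in spleen, Usp18 differed by -0.998 ± 0.08, just inside the 2-fold limit. Oas2 followed with -0.57, then Ifit2 and Ifit3 with -0.49 each, Mx2 with -0.47 and Ifit1 with -0.43. In the thymus the largest differences were 0.75 ± 0.08 for Oasl1, 0.65 ± 0.11 for Ifit1 and -0.60 ± 0.08 for Zbp1. The second Zbp1 probe gave 0.61 in thymus and 0.72 in spleen, so its 2 probes point in opposite directions in thymus. Between the thymus arrays, 5 of 7 B cell markers (median 1.64), 5 of 7 neutrophil markers (median 1.08) and 4 of 4 erythroid markers (median 2.29) were at least 2-fold higher in deltaDC mice. The natural killer cell and erythroid markers given above also differed between the spleen arrays. Monocyte and macrophage markers summed to 2147 in WT and 3704 in deltaDC spleen. The 9 neutrophil markers summed to 53816 and 49671, of which Csf3r alone gave 53650 and 39678. Well above background were 3 of them in WT spleen and 9 in deltaDC spleen. Against the lowest WT signal well above background, 6 were at least 2-fold higher in deltaDC spleen, S100a9 among them at 6471. Camp was higher by 4.66, while Elane (-0.01) and Csf3r (-0.44) were not higher. Their part in these values was not tested.

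**Figure D4:**
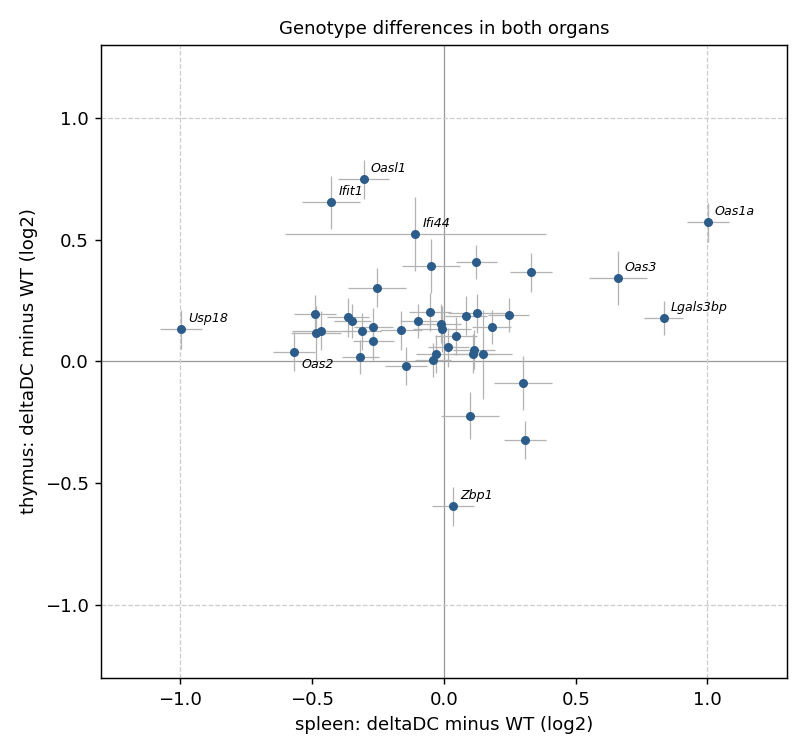
Each point is one gene, with its deltaDC minus WT log2 difference in spleen (x axis) and thymus (y axis), bars giving the error between repeated spots and dashed lines a 2-fold difference. On the thymus axis 37 of 42 points lie above 0 (27 in the deposited matrix), Oas1a reaches 1.001 in spleen and Usp18 reaches -0.998.

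The genotype differences in the 2 organs had the same sign for 15 of the 42 genes and opposite signs for 27 (64.3%), where 44.1% of all genes had opposite signs. For 7 (16.7%) both differences were also past 2 spot errors, against 7.81% of all genes. Of all 42 genes, 23 were lower in deltaDC spleen and higher in deltaDC thymus, against 27.6% of all genes measured on the 4 arrays. The genotype difference in thymus minus that in spleen was past 1 log2 unit for 3 of the 42 genes, all positive: Usp18 (1.13 ± 0.11), Ifit1 (1.08 ± 0.16) and Oasl1 (1.05 ± 0.12). Over all genes 8.93% passed this limit, 2.31% on the positive side. The median was 0.15, against 0.06 over all genes, with 30 of the 42 genes above 0 and 12 below. The all-gene median was thus above 0 as well, and the share of all genes above 0 was not counted. The difference of genotype effects was not tested, since it would use the last degree of freedom. It forms the residual of the limma fit. On the 4 arrays, 22 genes (52.4%) were highest in deltaDC thymus, against 25.5% of all genes, and 18 (42.9%) were lowest in deltaDC spleen, against 24.5%. Each sign pattern moves with the scaling where a difference is small, as for Irf9, whose thymus value was 0.17 and became -0.02 in the deposited matrix.

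Other genes of the pathway place these values. Of 17 interferon ligand genes on the array, 7 were well above background on all 4 arrays and 7 on none, Ifnb1 among the latter. The Ifna genes that were detected were dim, such as Ifna1, whose highest signal was 67.4 in deltaDC spleen. Ifng, the type II interferon, had scaled signals of 869 in WT spleen, 3169 in deltaDC spleen, 433 in WT thymus and 162 in deltaDC thymus. It was higher in deltaDC mice by 1.87 in spleen and lower in thymus, by -1.42. It was the sole ligand measured on both arrays of a genotype comparison to differ 2-fold. Ifnk was well above background in WT spleen alone, at 2.41 times its dim deltaDC signal.

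Receptor signalling outside the 43 genes differed little. Of 8 such genes measured on both arrays, 0 differed 2-fold in either genotype comparison, where 8.41% of all genes did in spleen and 1.6% in thymus. Ifnlr1, the type III interferon receptor, was well above background in deltaDC thymus alone, at 3.02 times its dim WT signal. Of the sensors and factors that induce interferon, 1 of 19 differed 2-fold by genotype in spleen, against 8.41% of all genes. It was Tlr7, a sensor of single-stranded RNA, at -1.11. Irf5, a factor downstream of such sensors, differed by 0.94. None of 18 differed 2-fold in thymus (1.6% of all genes). Between organs 0 of 18 did in WT (9.56% of all genes) and 2 of 19 in deltaDC (11.5% of all genes). The 2 were Tlr7 at 1.42 and Irf5 at -1.03. Of the 14 regulators that limit the response, 0 differed 2-fold by genotype (8.41% of all genes in spleen and 1.6% in thymus). Socs3, a feedback inhibitor of cytokine receptors, was lower in thymus by -2.01 in WT and -2.08 in deltaDC.

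A wider list of interferon-induced genes outside the 43 showed another picture. In spleen 10 of 85 measured genes were at least 2-fold higher in deltaDC mice and 0 lower, where 6.41% of all genes were higher and 2% lower. They were the chemokine Ccl5 (3.99), Plac8 (2.77), Ifi211 (2.62), the chemokine Cxcl10 (1.69), the necroptosis effector Mlkl (1.51), Ly6a (1.17), Tmem140 (1.15), the thiol reductase Ifi30 (1.12) and the inflammatory caspases Casp1 (1.11) and Casp4 (1.01). Trim30c was at least 4.95-fold lower, against the lowest signal well above background. The median of the 85 was -0.11, so these 10 stand at the high end of a list whose middle was not higher. In the same comparison 6 of 8 natural killer cell markers were 2-fold higher or more (median 2.69), and their part in the list's values was not tested. In thymus 0 of 86 differed 2-fold by genotype, where 1.6% of all genes did, with a median of 0.07.

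Between organs, the wider list had a median below 0 where that of the 42 genes was above 0. In WT mice 3 of 86 were 2-fold higher in thymus and 11 lower (6.53% and 3.03% of all genes), with a median of -0.22 against -0.08 over all genes. In deltaDC mice 3 were higher and 10 lower (5.37% and 6.16% of all genes), with a median of -0.19 against -0.02. The largest differences in WT were Plac8 (4.02), Ly6c1 (-2.32), Ifi211 (2.11), the DNA sensor Aim2 (-1.80) and Phf11a (-1.71). In deltaDC they were Ccl5 (-2.69), Ly6a (-2.52), Ly6c1 (-2.51), Phf11a (-1.76) and Casp1 (-1.63). The difference between the 2 lists was not tested.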

How the data were processed

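Total RNA (10 ng) of the 4 Treg samples was labelled with Cy3 and hybridised to 4 one-colour arrays on 1 slide, per the labels. RNA integrity numbers ran from 8.4 to 9.9. The deposited scanner files hold intensity values from Agilent Feature Extraction 10.7.3.1, background-subtracted within an array and not scaled between arrays, and other columns of flags, per the file headers. The authors' deposited matrix holds quantile-normalized log2 values (column medians 4.10 to 4.15, not centred on 0), its offset is not given in the sources used here, and it served as an alternative.

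Outlier spots (110 to 168 an array) were removed, 0 spots were saturated, and each array's 75th percentile of the log2 signal was subtracted. Spots of one probe were averaged, and the brightest probe by mean stood for its gene. Of 55681 probes, 27503 were named through RefSeq accessions and 3554 by current symbol. The 43 genes had 62 probes, and 16 genes had more than 1. Two-array differences were counted at 2-fold where both arrays passed the background flag, and where 1 did, the ratio to the higher of the other array's dim signal and its lowest detected signal is given. The limma 3.58.1 fit (R 4.3.3, genotype plus organ, lmFit and eBayes, two-sided, Benjamini-Hochberg) used genes passing the flag on 2 or more arrays. Its prior had 1.84 degrees of freedom, and the script was tested on simulated data. Its 1 residual degree of freedom is the difference of genotype effects between the organs. A gene with a large such difference therefore gets a large error, and the p-values hold no spread between replicate arrays.

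The genes, the other pathway and marker lists and the rules were chosen with earlier results of these data known. Values on every array are given for genes with a 2-fold difference in any comparison and for Ifnar1, Ifnar2, Stat2, Irf7 and Irf9. Those of Usp18, Lgals3bp, Rtp4, Mx1, Ifit2, Isg15 and the markers are shown too, picked after their values were seen. In the other pathway lists, genes with a 2-fold genotype difference are named, and the 5 largest organ differences. Alternatives were another background correction, scaling, probe rule, filter, fold and variance model.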

Additional observations from a re-analysis of the deposited data

Results flagged for a closer look

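For 7 of the 42 measured genes the difference between deltaDC and WT had opposite signs in spleen and thymus, each more than 2 spot errors from 0 (16.7% of them, against 7.81% of all genes measured on the 4 arrays). The difference between organs was not tested, and with 1 array a group each sign rests on a single pair of arrays. All but Bst2 were lower in deltaDC spleen and higher in deltaDC thymus. The effect in thymus minus that in spleen was 1.08 for Ifit1 (-0.43 in spleen, 0.65 in thymus) and 1.05 for Oasl1 (-0.31 and 0.75). It was 0.68 for Ifit3 (-0.49 and 0.19), 0.56 for Oasl2 (-0.26 and 0.30), 0.55 for Ifnar1 (-0.37 and 0.18) and 0.51 for Irf9 (-0.35 and 0.17). In the deposited matrix the Irf9 thymus value was -0.02, and as the median over its probes the Ifnar1 spleen value was 0.04, so neither sign pattern held under that alternative. Bst2 ran the other way, with a difference of -0.63 (0.31 and -0.32).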

How the results depend on the processing

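None of the single-gene differences of at least 2-fold changed sign under any alternative run. Of the 168 differences of single genes, 37 changed sign under at least 1 alternative, among them Zbp1 by genotype in thymus (-0.60, and 0.0087 as the median over probes). The median by genotype in spleen was -0.03 and became 0.02 with the array median as scale. In spleen the count of genes 2-fold apart by genotype was 0 by quantile normalization, in the deposited matrix and as the median over probes, 4 at 1.5-fold and 0 at 3-fold. In thymus it was 3 at 1.5-fold, and the median was 0.05675 by quantile normalization and 0.02754 in the matrix. Between organs in WT the count was 5 by quantile normalization (4 higher and 1 lower), 5 in the matrix, 11 at 1.5-fold and 1 at 3-fold, and the median was 0.29 and 0.32 by the first 2. In deltaDC the count was 15 at 1.5-fold and 4 at 3-fold, and the median was 0.18 with the array median as scale. The count of genes with genotype effects over 1 log2 unit apart was 1 with normexp and 1 with the array median. The cause of these shifts was not tested. Shares of all genes at these settings are not given here, so these counts show only how far each moved from its value above. The other 70 summary values stayed within 1.5 times the count or within the spot error of the median. Of the values of single genes, 979 stayed within the spot error and 197 moved by more. The genes called for organ over the whole array (64) ranged from 0 by quantile normalization, the array median, the matrix, stricter or no filters and no moderation, to 223 with normexp, but none of the 42 passed in any, the lowest adjusted p being 0.0585 (limma, Mx2 with normexp). The additive fit already sets organ against organ within each genotype's pool of mice. For genotypes, no paired analysis was possible because the labels carry no replicate numbers and each group has 1 array. Dim genes limit precision: the spot SD was 0.35 log2 units under a signal of 50 and 0.06 between 1000 and 10000.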

Other observations

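Some genes had probes that disagree. Of Parp9, the bright probe differed between organs in deltaDC mice by 0.31 and a dim one by 1.35, and by genotype in spleen by -0.03 and -0.97. The dim Xaf1 probe gave 1.05 in deltaDC between organs where the bright one gave 0.62. Trim25 gave 0.51 on one probe and 0.04 on the other in deltaDC between organs, and 0.18 and -0.09 in WT, both probes being bright. Ddx58 gave -0.54 on a dim probe and 0.10 on the bright one in WT between organs. Which transcripts each probe reads was not analysed here.

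The mean profile of the 42 genes over the 4 arrays was closest, by Pearson r over those 4 points, to Grsf1, Lancl1, Spdef, Phb2, Stag1, Iars2, Cabyr, Mesd, Klhdc9 and Mgst3, with r of at least 0.999. With 4 points such values are common: 130 of 12243 genes had an r of 0.99 or more.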
